A study of Mus musculus with 16 samples.

Results

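Primary cortical neurons carrying mutant huntingtin together with Twist1 shRNA 2 were compared with neurons carrying wild-type huntingtin and a control shRNA, to describe what remained different from wild type when that hairpin was present. The comparison was defined by the group labels and used 8 of the 16 RNA sequencing libraries of the study, 4 in each group, 1 per group in each experiment (exp107, exp108, exp109a, exp109b). Neurons came from Swiss Webster mouse embryos on embryonic day 16. They received 2 lentiviruses on day 5 in vitro, and RNA was harvested on day 10 and depleted of ribosomal RNA with Ribo-Zero, per the labels. The wild-type group, called 25Q, expressed exon 1 of huntingtin with 25 glutamines and an shRNA against luciferase. The mutant group, called shRNA 2 below, expressed the same exon with 72 glutamines and the second of the study's 2 Twist1 shRNAs. The groups therefore differed in both the huntingtin fragment and the hairpin, which cannot be told apart within this comparison. For that reason values of the other 8 libraries, 72Q with the luciferase shRNA (72Q control) and 72Q with Twist1 shRNA 1, are given beside it. The model is a transduced exon 1 fragment in bulk cultures, not full-length mutant huntingtin in animals, and no source used here gives the transgene's promoter.

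Expanded glutamine tracts in the first exon of huntingtin cause Huntington disease, in which cortical and striatal neurons lose transcripts of receptors, channels and signalling enzymes. Twist1 is a basic helix-loop-helix transcription factor that pairs with E proteins and binds E-box sequences. It acts in mesoderm and neural crest, and it is scarcely expressed in mature neurons. In neurons many developmental transcription factor genes, such as those of the HOX clusters, are held silent by Polycomb complexes, which modify histones over promoters rich in CG dinucleotides.

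Totals were 17056112 to 19240941 counts per library in 25Q and 16976220 to 19533034 with shRNA 2. At least 1 count was found for 20188 to 20426 genes in 25Q and for 20721 to 21433 with shRNA 2. Transcripts of the mitochondrial genome took 2.41 to 2.78% of counts in 25Q, 2.10 to 2.78% with shRNA 2 and 3.16 to 3.59% in 72Q control. Levels below are CPM, a gene's count relative to its library's total, scaled by TMM factors, and where 4 values are given they are in the order exp107, exp108, exp109a and exp109b. Means are given ± SD with n = 4, and log2 fold changes ± SE. A value ± error that follows levels with no unit is the log2 fold change. Rose and fell are used where edgeR's quasi-likelihood test gave a Benjamini-Hochberg adjusted p under 0.05 over 15103 genes. These genes passed a filter on low counts with a floor of 0.565 CPM. A gene under that floor in a 25Q library passed through the 72Q libraries. Its call of a rise was thereby favoured, so its adjusted p is only a description. In bulk cultures fewer cells of a type and less RNA per cell cannot be told apart, and this holds for every level below.

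Twist1 remained above its wild-type level in the presence of the hairpin directed at it. Twist1 (ENSMUSG00000035799, chr12:33957671-33959817, GRCm38) was at 0.289, 0.55, 0.245 and 0 CPM in 25Q and at 1.4, 2.19, 1.28 and 1.7 CPM with shRNA 2. Every shRNA 2 library was above every 25Q library. The log2 fold change was 2.18 ± 0.30 (adjusted p = 3.39e-07), from 18 summed counts in 25Q and 125 with shRNA 2, a ratio of 5.94 (95% interval 3.61 to 10.4). In 72Q control Twist1 was at 3.29, 5.07, 3.84 and 4.38 CPM, all above the shRNA 2 libraries, and the direct difference of shRNA 2 from 72Q control was -1.29 ± 0.19 (adjusted p = 2.97e-06). Between shRNA 2 and shRNA 1 it was 0.066 ± 0.22 (adjusted p = 0.826), so the hairpins left a level of Twist1 that was not distinguished by this test.

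Among the bHLH partners of Twist1, Hand2, a factor of heart and sympathetic neuron development, was at 0.116, 0, 0 and 0 CPM in 25Q and 1.34, 1.8, 2.09 and 2.17 CPM with shRNA 2. Its summed counts rose from 2 to 143, a ratio of 61.2 (95% interval 16.6 to 510.1). The E protein gene Tcf4, whose product pairs with class II bHLH factors, fell from 793 ± 82.9 CPM to 471 ± 26.7 CPM, by a log2 fold change of -0.75 ± 0.048. Id2, an inhibitor that sequesters E proteins, fell from 81.4 ± 13.9 CPM to 31.5 ± 3.05 CPM, -1.36 ± 0.082. Of the 11 genes of this list 9 were tested, of which 4 rose and 3 fell, and 4 became 2 without the experiment term in the fit. Twist1 and Hand2, which are 2 of the 4, were under the floor of the filter on low counts, 0.565 CPM, in 25Q libraries and passed it through the 72Q libraries, so their calls were favoured by the filter. The share of all tested genes that rose against 25Q was 31.4%, and 31.8% fell.

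Htt (ENSMUSG00000029104, chr5:34761740-34912534), the gene of mouse huntingtin, had 229, 272, 289.6 and 312 CPM in 25Q against 213, 192, 228 and 259 CPM with shRNA 2. The groups overlapped, and the log2 fold change of -0.31 ± 0.053 (adjusted p = 9.61e-06) was no longer called without scaling beyond library totals (-0.10). Reads from the transduced exon 1 may be counted under this gene, and no source used here says.

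Of the 15103 genes tested, 9556 (63.3%) differed between shRNA 2 and 25Q, 4748 of them higher (31.4%) and 4808 lower (31.8%). The changes were mostly small. The median absolute log2 fold change over all genes was 0.298, and 749 genes (4.96%) rose and 670 (4.44%) fell by at least 2-fold. In 3202 genes (21.2%) all 4 shRNA 2 libraries lay above all 4 of 25Q, and in 3350 (22.2%) all lay below. Genes that rose by at least 2-fold were mostly of low level, with a median of 1.41 CPM beside 21.4 CPM for all genes tested. Those that fell by at least 2-fold had a median of 36.8 CPM. Of the 749 genes that rose by at least 2-fold, 291 had a mean under 1 CPM over the 8 libraries and 371 between 1 and 10 CPM. Of the 670 that fell by at least 2-fold, 293 had a mean between 10 and 100 CPM and 168 between 100 and 1000 CPM. In the same order these classes held 1495, 3934, 7187 and 2409 of the 15103 genes tested. Among the 78 genes above 1000 CPM, 4 rose and 58 fell. Without scaling beyond library totals the median log2 fold change of all genes moved from 0.014 to 0.219 and the share of calls that were higher moved from 49.69% to 72.26%. With upper-quartile factors these were 0.112 and 61.52%, so small changes are read relative to the median of all genes. Counts of list members that rose or fell are read below beside the 31.4% and 31.8% of all tested genes. Counts against 72Q control are read beside 20.2% higher and 21.5% lower, and against shRNA 1 beside 25.9% and 27.3%.

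Transcripts of developmental regulators that were nearly absent from 25Q neurons were present with shRNA 2. Among the 12 highest log2 fold changes, of genes of at least 1 CPM, were those of 9 transcription factor genes of the LIM, POU, HOX, forkhead and T-box families and of Irs4 and Pgr15l. Lhx4 (ENSMUSG00000026468, chr1:155698031-155751710), a LIM-homeodomain factor of pituitary and motor neuron development, was at 0.116, 0, 0.245 and 0.0635 CPM in 25Q. With shRNA 2 it was at 9.66, 10.5, 10.2 and 11.9 CPM, with a log2 fold change of 5.61 ± 0.23 (adjusted p = 1.19e-18). The groups did not overlap.

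Pou4f1 (ENSMUSG00000048349, chr14:104461676-104467999), which specifies sensory neurons, went from 0.463, 0.244, 0.184 and 0.19 CPM to 16.4, 20.6, 16 and 21 CPM, with a log2 fold change of 5.58 ± 0.16 (adjusted p = 9.8e-22). Its relative Pou4f2, a factor of retinal ganglion cells, had no counts in any 25Q library and was at 2.95, 3.17, 3.43 and 2.91 CPM with shRNA 2. Set against a floor of 3 counts over the 25Q group, it was at least 68.5-fold higher. Irs4, an insulin receptor substrate and the highest gene outside the transcription factors, rose from 0.174, 0.244, 0.0613 and 0.127 CPM to 9.82, 6.94, 12.5 and 13 CPM, with a log2 fold change of 5.32 ± 0.21 (adjusted p = 1.27e-18). All 4 of these genes were thus detected in every shRNA 2 library. They were under the filter's floor in every 25Q library, so their calls were favoured by the filter.

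Among HOX genes, which pattern the body axis, Hoxc13 (chr15) had 3 counts in 25Q and 437 with shRNA 2, a ratio of 125 (95% interval 42.4 to 607), and its shRNA 2 libraries lay at 5.1, 5.9, 5.23 and 6.57 CPM. Hoxd8 (chr2) had 1 count against 291, a ratio of 249 (95% interval 44.3 to 9869.7), with shRNA 2 libraries at 4.24, 3.06, 4.52 and 3.23 CPM. Hoxb13 (chr11) rose from 0, 0.244, 0.0613 and 0.127 CPM to 4.46, 4.37, 5.62 and 5.3 CPM, a log2 fold change of 4.52 ± 0.27. These genes lie on different chromosomes and in different clusters. Of the 39 HOX genes listed, 33 had a higher mean with shRNA 2, none had a lower mean and 6 had no counts in either group. Only 11 passed the filter on low counts, and each of the 11 was under the filter's floor of 0.565 CPM in a 25Q library, so they passed through the 72Q libraries and their calls against 25Q add nothing to the values.

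The forkhead genes Foxf1, of gut and lung mesenchyme, and Foxd1, of kidney stroma, were likewise at or near 0 in 25Q. Both lay under the filter's floor in every 25Q library. Foxf1 was at 0.174, 0.0611, 0 and 0.0635 CPM there and at 6.12, 8.64, 4.71 and 6.15 CPM with shRNA 2, a log2 fold change of 5.10 ± 0.30. Foxd1 had 2 counts in 25Q and 340 with shRNA 2, a ratio of 145 (95% interval 40.0 to 1206). Tbx3, a T-box factor of limb and heart development, had 1 count against 266, a ratio of 228 (95% interval 40.5 to 9025). Pgr15l, an orphan receptor gene, rose by 4.97 ± 0.19. In each of these 11 genes the lowest shRNA 2 library was above the highest 25Q library, as the plot of the highest and lowest genes shows.

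**Figure D1:**
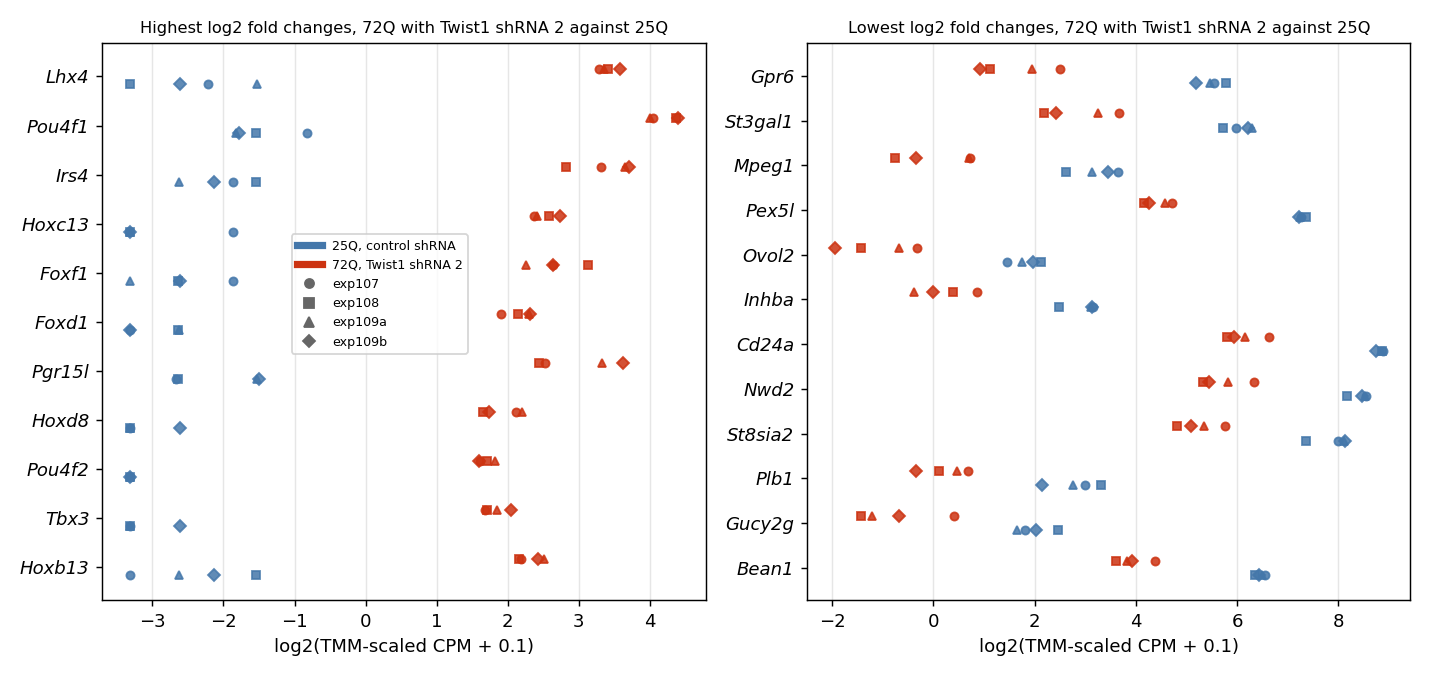
Levels of 11 genes with the highest (left) and 12 with the lowest (right) log2 fold changes, as log2 of TMM-scaled CPM plus 0.1, with 1 point per library, colour for the group and marker shape for the experiment. A 25Q library with no counts sits at the left edge of the left panel, and in every gene plotted the groups do not overlap.

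In the direct comparisons with the other 72Q groups these 11 genes were higher with shRNA 2. They were chosen for their high values in the same shRNA 2 libraries, which favours a higher value there, and likewise a lower one for the 12 lowest genes below, so these differences and the counts of genes are descriptions. Direct tests of shRNA 2 against 72Q control, a comparison in which 20.2% of all tested genes rose and 21.5% fell, found all 11 higher with shRNA 2. The differences ranged from 0.38 for Pou4f1 to 1.51 for Hoxd8 on the log2 scale. Hoxd8, at 4.24, 3.06, 4.52 and 3.23 CPM with shRNA 2, was at 1.4, 1.34, 0.96 and 1.29 CPM in 72Q control, a difference of 1.51 ± 0.19 (adjusted p = 1.6e-07). Foxf1, at 1.28, 3.73, 1.36 and 2.53 CPM in 72Q control, differed by 1.49 ± 0.18 (adjusted p = 1.61e-07). All 11 were higher with shRNA 2 than with shRNA 1 as well, a comparison in which 25.9% of genes rose and 27.3% fell. For Hoxc13 that difference was 3.13 ± 0.21 (adjusted p = 2.05e-13), the gene standing at 0.587, 0.715, 0.395 and 0.499 CPM with shRNA 1.

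Most members of the other families of developmental factors also had higher means, counted here over all listed members by the sign of the mean, without a test. Of all 26483 genes with a count in either group 52.9% had a higher mean with shRNA 2, and of the 12875 with a mean under 1 CPM, 56.7%. A higher mean with shRNA 2 than in 25Q was found for 10 of 12 LIM-homeodomain genes, 8 of 10 POU4, EBF and ONECUT genes, 12 of 15 T-box genes, 8 of 11 GATA and TAL genes, 15 of 17 forkhead genes and 18 of 21 paired box, sine oculis and Iroquois genes. It was found for 19 of 25 paired-like and limb homeobox genes and 15 of 20 DLX, NKX and GSX genes. Tal1, a factor of blood and inhibitory neuron development, rose from 2.26, 2.02, 2.63 and 2.16 CPM to 22.5, 25, 26.7 and 28.6 CPM, with a log2 fold change of 3.44 ± 0.13 (adjusted p = 5.56e-17), and was lower than in 72Q control, with a difference of -0.51 ± 0.086. Shox2, a limb homeobox factor, had 3 counts in 25Q and 262 with shRNA 2, a ratio of 74.7 (95% interval 25.3 to 365). Tbx20, a factor of heart development, had no counts in 25Q and was at least 47.6-fold higher with shRNA 2 against the floor of 3 counts.

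Members of the same families that had clear counts in 25Q did not move in 1 direction. Tbr1, the T-box factor of deep-layer cortical neurons, fell from 90.0, 81, 78.4 and 82.5 CPM to 26, 23.1, 20.4 and 21.7 CPM, with a log2 fold change of -1.86 ± 0.067 (adjusted p = 3.92e-19). Lhx2, a cortical LIM-homeodomain factor, fell from 209.7 ± 9.35 CPM to 117 ± 8.11 CPM, -0.84 ± 0.051. Dlx1 and Dlx5, homeobox factors of inhibitory neurons, both fell, with log2 fold changes of -0.54 ± 0.071 and -0.83 ± 0.13, whereas their relative Dlx2 rose by 0.62 ± 0.11. The ventral forebrain factors Gsx2 and Nkx2-1 are not of that kind, with only 38 and 7 counts in 25Q. They rose by 1.64 ± 0.22 and 2.05 ± 0.37. Both were under the filter's floor in a 25Q library, so their calls were favoured by the filter. Dlx6 (0.091 ± 0.14), Otx1 (-0.094 ± 0.10) and Pax6 (0.13 ± 0.092) were not called. Tbr1 was in addition lower with shRNA 2 than in 72Q control, which was at 62.1, 47.1, 55.8 and 44.9 CPM, with a difference of -1.19 ± 0.069 (adjusted p = 3.78e-14). Foxj1, a factor of ciliated cells, was at 6.08, 5.62, 6.13 and 5.96 CPM in 25Q and 5.64, 6.34, 5.66 and 6.84 CPM with shRNA 2, and it was not called, at 0.033 ± 0.12 (adjusted p = 0.821). The 10 other forkhead genes tested were under the filter's floor in a 25Q library and passed through the 72Q libraries, so no count of their calls is given.

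Upstream sequences of a few of these genes are shown because the factors moved together and because Twist1 recognises E-boxes, written CANNTG, a motif that reads the same on both strands. The sequences are the 250 bases before the RefSeq start of each gene (GRCm38.p6), 5′ to 3′ on the gene's strand, with E-box letters in capitals. The Lhx4 window precedes the start in the RefSeq table and lies inside the gene's span given above, which reaches further upstream. Lhx4 (chr1:155742028-155742277, minus strand), Pou4f1 (chr14:104468000-104468249, minus strand) and Hoxd8 (chr2:74704365-74704614, plus strand) are genes that rose, and Elavl3 (chr9:22052024-22052273, minus strand), described further down, fell with shRNA 2.
Lhx4: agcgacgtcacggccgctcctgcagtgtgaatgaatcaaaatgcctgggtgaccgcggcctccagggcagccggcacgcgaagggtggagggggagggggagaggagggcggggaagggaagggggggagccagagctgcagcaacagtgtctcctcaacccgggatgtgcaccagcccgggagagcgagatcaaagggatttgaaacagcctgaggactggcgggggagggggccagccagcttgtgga
Pou4f1: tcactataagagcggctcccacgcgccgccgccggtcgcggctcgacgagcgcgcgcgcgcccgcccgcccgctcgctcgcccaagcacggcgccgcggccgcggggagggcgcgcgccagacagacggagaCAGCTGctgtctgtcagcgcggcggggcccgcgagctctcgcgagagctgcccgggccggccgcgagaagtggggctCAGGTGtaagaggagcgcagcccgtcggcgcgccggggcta
Hoxd8: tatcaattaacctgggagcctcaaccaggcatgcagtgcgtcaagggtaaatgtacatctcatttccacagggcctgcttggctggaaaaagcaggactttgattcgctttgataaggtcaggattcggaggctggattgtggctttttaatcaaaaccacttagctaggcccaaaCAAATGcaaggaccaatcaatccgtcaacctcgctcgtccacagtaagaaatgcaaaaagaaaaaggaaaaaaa
Elavl3: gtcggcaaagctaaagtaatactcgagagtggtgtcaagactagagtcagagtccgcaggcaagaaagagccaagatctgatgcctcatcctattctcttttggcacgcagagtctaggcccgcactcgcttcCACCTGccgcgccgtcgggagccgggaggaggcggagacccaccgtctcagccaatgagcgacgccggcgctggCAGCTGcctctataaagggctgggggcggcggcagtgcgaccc
The window of Pou4f1 held 2 E-box matches, that of Hoxd8 held 1, that of Elavl3 held 2 and that of Lhx4 held 0. Of all 32851 windows of this length in the RefSeq table, 66.2% held at least 1 match, so a match does not set these genes apart. Pou4f1 had 47 CG dinucleotides, more than 99.8% of all windows, Elavl3 had 20, Lhx4 had 14 and Hoxd8 had 6, the last equal to the median window. A match in these letters is a description of the sequence and not evidence of binding, and nothing follows from a window without one.

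Among the 12 lowest log2 fold changes were those of Gpr6, of the sialyltransferase genes St3gal1 and St8sia2, and of Cd24a, Pex5l and Bean1. Gpr6 (ENSMUSG00000046922, chr10:41069989-41072285), a constitutively active receptor of striatal projection neurons, fell from 46.4, 54.7, 43.9 and 36.5 CPM to 5.58, 2.08, 3.76 and 1.8 CPM, with a log2 fold change of -3.76 ± 0.24 (adjusted p = 7.39e-08). The libraries of exp107 and exp109a kept the higher shRNA 2 values, and no library overlapped with 25Q. In 72Q control Gpr6 was at 2.86, 1.34, 3.44 and 1.34 CPM, and the difference between shRNA 2 and 72Q control was 0.53 ± 0.36 (adjusted p = 0.278), with an adjusted p of 0.0022 when the filter on low counts was left out. It had the lowest log2 fold change from 25Q of the genes named here.

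Among glycan enzymes, St3gal1, a sialyltransferase of O-linked glycans, fell from 63.1, 53, 78 and 74.6 CPM to 12.6, 4.43, 9.42 and 5.3 CPM, with a log2 fold change of -3.12 ± 0.25 (adjusted p = 1.36e-06). St8sia2, which adds polysialic acid to the adhesion molecule NCAM in developing neurons, fell from 256, 165, 277 and 281 CPM to 54.1, 28, 40.8 and 34 CPM, -2.65 ± 0.19 (adjusted p = 7.09e-07). St8sia2 was also lower with shRNA 2 than in 72Q control, with a difference of -0.77 ± 0.20 (adjusted p = 0.0108), a difference not called without the experiment term (adjusted p = 0.068) or without the exp109a library of shRNA 2 (adjusted p = 0.052).

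Cd24a, a glycoprotein of the surface of immature neurons, fell from 472, 465, 457 and 431 CPM to 99.6, 55.7, 70.8 and 61.2 CPM, with a log2 fold change of -2.71 ± 0.19 (adjusted p = 6.54e-07). In 72Q control it was at 167, 69.3, 161 and 97.3 CPM, and shRNA 2 was lower, with a difference of -0.76 ± 0.19 (adjusted p = 0.0103). Bean1, a membrane protein that binds the ubiquitin ligase NEDD4, stood further from 25Q with shRNA 2 than in 72Q control. Its 25Q libraries were at 93.1, 81.2, 90.0 and 86.6 CPM, 72Q control at 45, 30.0, 44.4 and 38.3 CPM and shRNA 2 at 20.8, 12, 14 and 15.1 CPM, with no overlap between any of the groups. The log2 fold change was -2.51 ± 0.075 against 25Q and -1.35 ± 0.079 (adjusted p = 1.78e-13) against 72Q control.

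Pex5l, an auxiliary subunit of pacemaker (HCN) channels, fell from 152, 163, 151 and 149 CPM to 26.1, 17.8, 23.8 and 19.2 CPM, with a log2 fold change of -2.84 ± 0.14 (adjusted p = 3.52e-09). Grm2, a presynaptic metabotropic glutamate receptor that is among the lowest genes of at least 50 CPM but not among the 12, fell from 91.4, 76.9, 83.8 and 87.4 CPM to 25.2, 11.8, 13.8 and 11.8 CPM, -2.48 ± 0.18 (adjusted p = 5.59e-07). The exp107 library of shRNA 2 was the highest of its group in both genes. Inhba, the activin A subunit gene, fell from 8.85, 5.5, 8.52 and 8.69 CPM to 1.72, 1.2, 0.666 and 0.901 CPM, -2.72 ± 0.20 (adjusted p = 4.04e-12). The other members of the 12 lowest were Mpeg1 (-3.03 ± 0.18), a pore-forming protein of macrophages, Ovol2 (-2.77 ± 0.27), a zinc finger factor of epithelia, the phospholipase gene Plb1 (-2.56 ± 0.18), the guanylyl cyclase gene Gucy2g (-2.56 ± 0.31) and Nwd2 (-2.69 ± 0.16). Among genes with a mean of at least 50 CPM the lowest also took in Pdzrn3, a ubiquitin ligase with PDZ domains, at -2.46 ± 0.11, and 1700086L19Rik at -2.46 ± 0.15.

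Gucy2g showed the widest separation of shRNA 2 from shRNA 1 among the 12 lowest. It was at 3.41, 5.44, 3.06 and 4 CPM in 25Q, 5.76, 4.04, 4.57 and 2.99 CPM with shRNA 1 and 1.23, 0.273, 0.333 and 0.53 CPM with shRNA 2, and the direct difference between the hairpins was -2.67 ± 0.30 (adjusted p = 5.73e-07). The shRNA 1 libraries overlapped with 25Q and those with shRNA 2 did not.

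Rises among genes with a mean of at least 50 CPM were smaller and included genes of sterol synthesis, mitochondria and growth factor signalling. Hap1 (ENSMUSG00000006930, chr11:100347327-100356128), which codes for huntingtin-associated protein 1, rose from 61.6, 52, 92.2 and 92.6 CPM to 158, 218, 219 and 246 CPM, with a log2 fold change of 1.49 ± 0.15 (adjusted p = 6.47e-06). It was at 136, 187, 181 and 222 CPM in 72Q control and did not differ by the test from shRNA 2, at 0.21 ± 0.14 (adjusted p = 0.256), though the adjusted p was 0.0017 without the exp108 library of 25Q. Zcchc12, a zinc finger coactivator of BMP signalling, rose from 47.3, 26.6, 50.1 and 50.8 CPM to 123, 129, 126 and 118 CPM, 1.51 ± 0.16 (adjusted p = 1.17e-05). The exp108 library was the lowest of the 25Q group for both genes.

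Miga1, a mitochondrial outer membrane protein that promotes fusion, rose from 52.1, 43, 55.2 and 58.6 CPM to 121, 114, 138 and 145 CPM, with a log2 fold change of 1.30 ± 0.060 (adjusted p = 4.59e-17), and was 0.96 ± 0.058 above 72Q control. Grb10, an imprinted adaptor of the insulin and IGF receptors, rose from 58.4, 47.9, 59.4 and 52.9 CPM to 119, 126, 128 and 128 CPM, 1.20 ± 0.059 (adjusted p = 2.68e-16). Its 4 shRNA 2 libraries were above all others of the study. Nyap2, an adaptor of phosphoinositide 3-kinase in neurons, rose by 1.15 ± 0.062 but stood -0.37 ± 0.057 from shRNA 1, in which it was higher.

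Dnajb2, a neuronal cochaperone known to act on misfolded polyglutamine proteins, separated the hairpins. It was at 49.6, 55.9, 57.3 and 58.1 CPM in 25Q, 109, 125, 126 and 139 CPM with shRNA 2 and 36.1, 41, 37.9 and 47.1 CPM with shRNA 1. It rose with shRNA 2 by 1.17 ± 0.055 (adjusted p = 3.21e-17) and differed between the hairpins by 1.62 ± 0.056 (adjusted p = 4.49e-20). Every shRNA 2 library was above, and every shRNA 1 library below, every 25Q library.

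Most genes of cortical neuron identity were lower with shRNA 2. Of 39 tested, 5 rose and 30 fell, 13 of the latter by at least 2-fold, beside 31.4% of all genes rising and 31.8% falling, and their median log2 fold change was -0.73 beside 0.014 for all genes. Lmo4, a cortical LIM-only factor, fell from 334, 319, 315 and 329 CPM to 80.4, 70.6, 66.1 and 65.3 CPM, with a log2 fold change of -2.20 ± 0.055 (adjusted p = 4.58e-23). Bhlhe22, a factor of upper-layer identity and axon targeting, fell from 213, 199.9, 175 and 189 CPM to 56.7, 36, 46.5 and 35.3 CPM, -2.18 ± 0.12 (adjusted p = 6.18e-09). Neither gene had overlapping groups.

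Mef2c, an activity-dependent factor of synapse development, was the list member with the highest mean and fell from 2121, 1550.2, 1799.7 and 1723 CPM to 737, 523, 591 and 533 CPM, with a log2 fold change of -1.60 ± 0.056 (adjusted p = 3.5e-19). Against 72Q control it differed by 0.034 ± 0.055 (adjusted p = 0.666). Neurog2, which drives progenitors toward glutamatergic neurons, rose from 1.22, 1.71, 2.39 and 2.09 CPM to 3.76, 4.65, 4 and 5.78 CPM, 1.25 ± 0.17 (adjusted p = 1.26e-07). Foxp2, a factor of deep-layer neurons, rose by 0.56 ± 0.15 and was lower than with shRNA 1, with a difference of -1.12 ± 0.12. Tested directly against 72Q control, 7 of the 39 genes were higher and 11 lower with shRNA 2, or 4 and 7 without the experiment term.

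Markers shared by all neurons were lower as well, with 2 of 25 rising and 19 falling, and a median log2 fold change of -0.32. Their summed level was 19533 to 20858 CPM in 25Q and 12906 to 14472 CPM with shRNA 2, without overlap, and 14242 to 16239 CPM in 72Q control. Mapt, the tau gene, fell from 3160.5 ± 85.2 CPM to 1989.6 ± 107 CPM, -0.67 ± 0.047, and L1cam, an axonal adhesion molecule, from 997 ± 95.7 CPM to 373 ± 52.9 CPM, -1.42 ± 0.083. Nova1 and Elavl4, neuronal RNA-binding proteins, were the 2 that rose, by 0.84 ± 0.064 and 0.27 ± 0.055. What part a change in the number of neurons has in the results on neuronal genes was not tested. The plot of gene lists shows these groups member by member.

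**Figure D2:**
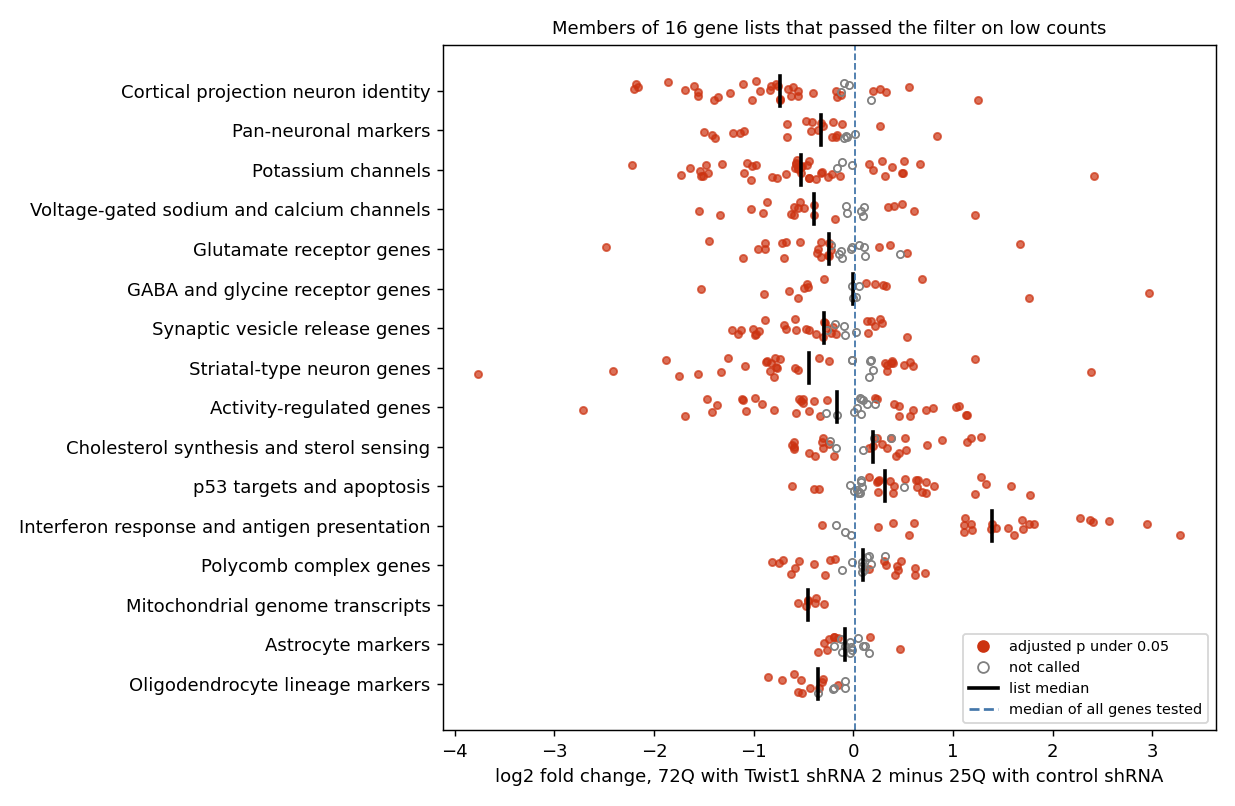
Log2 fold changes of shRNA 2 minus 25Q for the tested members of 16 gene lists, 1 point per gene, filled where the adjusted p was under 0.05, with the list median as a black bar and the median of all genes, 0.014, as a dashed line. Most potassium channel and cortical identity genes lie left of the dashed line, and the 7 mitochondrial genome transcripts all do.

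Most potassium channel genes were lower. Of 49 tested, 10 rose and 36 fell, 13 by at least 2-fold, beside 31.4% of all genes rising and 31.8% falling. Their median log2 fold change was -0.52. Kcng1, a modulatory Kv subunit, fell from 86.1 ± 17.4 CPM to 18.8 ± 6.26 CPM, -2.22 ± 0.18 (adjusted p = 1.11e-06), and Kcnh1, an EAG channel, from 57 ± 4.3 CPM to 17.3 ± 4.52 CPM, -1.73 ± 0.084 (adjusted p = 3.46e-15). Kcna5, a Kv1 channel subunit, went from 1.1, 1.34, 1.04 and 1.02 CPM to 5.74, 6.83, 6.42 and 6.99 CPM, 2.41 ± 0.16 (adjusted p = 1.34e-13), with no overlap. Against 72Q control 23 of the 49 genes were higher and 5 lower with shRNA 2, beside 20.2% and 21.5% of all genes. Without the experiment term 15 were higher and 2 lower. These 2 comparisons share the shRNA 2 libraries.

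Among sodium and calcium channel genes 5 of 24 rose and 14 fell (median -0.39), beside 31.4% and 31.8% of all genes. Against 72Q control 11 were higher and 4 lower, beside 20.2% and 21.5% of all genes, or 5 and 2 without the experiment term. Scn8a, the sodium channel of the axon initial segment, fell from 260.3 ± 34.8 CPM to 103 ± 10.7 CPM, -1.34 ± 0.079 (adjusted p = 1.98e-10). Cacna1i, a T-type calcium channel, fell from 192 ± 31.2 CPM to 65.5 ± 9.28 CPM, -1.55 ± 0.065 (adjusted p = 2.97e-16). Scn2b, a sodium channel beta subunit, rose from 108 ± 3.36 CPM to 165 ± 10.4 CPM, 0.61 ± 0.053 (adjusted p = 3.69e-11), although its mean in 72Q control was 87.7 ± 2.46 CPM, lower than in 25Q. Against 72Q control it was higher with shRNA 2 by 0.91 ± 0.054 (adjusted p = 3.49e-14).

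Glutamate receptor genes fell in 18 and rose in 4 of 32 cases, beside 31.8% and 31.4% of all genes, with a median of -0.24. They were higher with shRNA 2 than in 72Q control in 15 and lower in 5, beside 20.2% and 21.5% of all genes. Without the experiment term 8 were higher and 2 lower than in 72Q control. Cnih3, an AMPA receptor auxiliary protein, fell from 102, 97.3, 98.8 and 98 CPM to 45.5, 33.1, 38.7 and 29.5 CPM, -1.45 ± 0.092 (adjusted p = 6.07e-10), with no overlap. Grin3b, an NMDA receptor subunit, rose from 0.388 ± 0.291 CPM to 1.5 ± 0.188 CPM, 1.67 ± 0.32 (adjusted p = 4.4e-05). The 25Q mean of Grin3b was under the filter's floor of 0.565 CPM, so its call was favoured by the filter. Grin2b, the GluN2B subunit, was at 1681 ± 441 CPM in 25Q and 1142 ± 197 CPM with shRNA 2, -0.53 ± 0.063 (adjusted p = 9.61e-08), but not past the threshold when the experiment was left out of the fit.

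GABA and glycine receptor genes had no common direction against 25Q, with 7 of 19 higher, 8 lower and a median of -0.0062, which became 0.20 without scaling. Against 72Q control 10 were higher and 1 lower with shRNA 2, beside 20.2% and 21.5% of all genes. Glra3, a glycine receptor subunit, rose from 2.83 ± 0.634 CPM to 9.88 ± 2.11 CPM, 1.76 ± 0.16 (adjusted p = 8.21e-10), and was at 4.12 ± 1.01 CPM in 72Q control. Gabra5, a tonic GABA-A receptor subunit, fell from 185 ± 2.51 CPM to 65.6 ± 16.2 CPM, -1.53 ± 0.14 (adjusted p = 4.47e-06), and Gabbr2, a GABA-B receptor subunit, had a log2 fold change of -0.89 ± 0.060 (adjusted p = 1.85e-12). Gabre, a subunit of GABA-A receptors outside the usual neuronal set, rose from 0.346 ± 0.173 CPM to 3.54 ± 1.13 CPM, 2.97 ± 0.24 (adjusted p = 5.41e-12). Its 25Q mean was under the filter's floor of 0.565 CPM, so its call was favoured by the filter.

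Genes of synaptic vesicle release fell in 22 and rose in 7 of 34 cases, beside 31.8% and 31.4% of all genes, with a median of -0.29. Without scaling 14 fell and 10 rose, and without the experiment term 3 rose. Cplx2, a complexin that clamps vesicle fusion, fell from 968 ± 89.5 CPM to 439.6 ± 76.2 CPM, -1.15 ± 0.060 (adjusted p = 9.47e-15). Vamp2, the main vesicle SNARE, rose from 1149.7 ± 109 CPM to 1682 ± 244 CPM, 0.54 ± 0.067 (adjusted p = 4.4e-07). Against 72Q control 10 of the 34 genes were higher and 12 lower, beside 20.2% and 21.5% of all genes, or 5 and 7 without the experiment term.

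Genes of medium spiny neuron signalling, many of them known to fall in Huntington disease, were lower in 21 and higher in 11 of 38 cases. Of all genes 31.8% were lower and 31.4% higher. The median log2 fold change of the 38 was -0.45. Leaving out the exp107 library of 25Q reduced the 11 to 7 and left 21 lower. Rgs4, a GTPase activator that shortens G protein signals, fell from 277, 296, 263 and 281 CPM to 82.2, 54.8, 50.8 and 31.6 CPM, -2.41 ± 0.21 (adjusted p = 2.67e-06). Ano3, an anoctamin enriched in striatum, rose from 4.43 ± 0.459 CPM to 23.7 ± 4.25 CPM, 2.38 ± 0.11 (adjusted p = 2.11e-17), and was at 8.86 ± 1.97 CPM in 72Q control. Direct tests against 72Q control found 18 of the 38 genes higher and 3 lower with shRNA 2, beside 20.2% and 21.5% of all genes. Without the experiment term 12 were higher and 2 lower.

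Receptors for serotonin and neuropeptides had no common direction against 25Q and were mostly higher than in 72Q control. Against 25Q 14 of 42 were higher and 19 lower, beside 31.4% and 31.8% of all genes. Their median rounds to 0 and moved to 0.19 without scaling. Against 72Q control 26 were higher and 3 lower, beside 20.2% and 21.5% of all genes, and 17 and 0 without the experiment term. Ghsr, the ghrelin receptor gene, was at 1.5 ± 0.176 CPM in 25Q, 2.6 ± 0.671 CPM in 72Q control and 5.48 ± 0.8 CPM with shRNA 2, 1.78 ± 0.15 (adjusted p = 2.8e-11) against 25Q and 1.04 ± 0.14 (adjusted p = 3.78e-07) against 72Q control. Mc4r, a melanocortin receptor gene, fell from 10.1 ± 2.15 CPM to 2.84 ± 0.714 CPM, -1.79 ± 0.14 (adjusted p = 3.07e-12), and Sstr1, a somatostatin receptor gene, from 41.1 ± 3.01 CPM to 13.5 ± 2.85 CPM, -1.61 ± 0.088 (adjusted p = 4.14e-15). Of the 16 RGS genes tested, 4 rose and 8 fell, Rgs17 rising by 0.90 ± 0.049 and Rgs6 falling by 1.59 ± 0.072.

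Activity-regulated genes were called higher in 13 and lower in 20 of 43 cases, with a median of -0.16 that became 0.05 without scaling, where 20 rose and 18 fell. Fosl2, an AP-1 subunit, fell from 113 ± 21.9 CPM to 36.2 ± 14.6 CPM, -1.69 ± 0.16 (adjusted p = 3.77e-06). The stress-responsive factors Atf3 and Maff rose, Atf3 from 1.07 ± 0.415 CPM to 2.47 ± 0.603 CPM (1.14 ± 0.22) and Maff from 2.22 ± 0.522 CPM to 5.03 ± 1.27 CPM (1.13 ± 0.14). Of neurotrophin genes and their receptors 3 of 12 rose and 7 fell. The ligand gene Ntf3 fell, with a log2 fold change of -1.84 ± 0.18, and the receptor gene Ntrk2, which codes for TrkB, fell from 1354 ± 198 CPM to 937 ± 134 CPM, -0.53 ± 0.046 (adjusted p = 3.33e-11).

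In the activin, IGF and insulin list 7 of 24 rose and 12 fell, with a median of -0.20 that became 0.01 without scaling. Ligand and antagonist of the activin pathway fell together, Inhba as given above and Fst, which codes for follistatin, from 8.5 ± 2.29 CPM to 1.89 ± 0.548 CPM, -2.11 ± 0.16 (adjusted p = 2.19e-12). Igf2, an imprinted growth factor gene also expressed by meningeal cells, rose from 0.395 ± 0.0723 CPM to 7.76 ± 2.4 CPM, 3.94 ± 0.18 (adjusted p = 3.3e-17). Its 25Q mean was under the filter's floor of 0.565 CPM, so its call of a rise was favoured by the filter. Of the 24 genes 3 were under that floor in a 25Q library. Igfbp5, an IGF binding protein, fell from 441 ± 133 CPM to 228 ± 95.5 CPM, -0.99 ± 0.054 (adjusted p = 3.01e-15).

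Interferon-stimulated and antigen presentation genes mostly had higher means with shRNA 2. Of 37 listed genes 30 had a higher mean than in 25Q, 6 a lower mean, and 1 had no counts, beside the 52.9% of all genes with a higher mean. The filter on low counts passed 28 of them, 11 of which were under its floor in a 25Q library, so no count of calls is given against 25Q. Oasl2, an interferon-induced antiviral gene, rose from 0.174, 0.183, 0.123 and 0 CPM to 0.913, 3.28, 1.62 and 3.02 CPM, 3.28 ± 0.33 (adjusted p = 4.79e-10), with no overlap. Psmb8, a subunit of the immunoproteasome, rose from 0.107 ± 0.136 CPM to 1.57 ± 0.297 CPM, 2.95 ± 0.32 (adjusted p = 2.62e-09). Oasl2 and Psmb8 were both under the filter's floor in 25Q, so their calls add nothing to the values. Tap1, which carries peptides for MHC class I, rose by 1.70, whereas B2m, the invariant class I chain, fell by 0.32 ± 0.081, a call lost without scaling. Against 72Q control 9 of the 28 were higher and 2 lower, or 3 and 2 without the experiment term.

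Among p53 targets and apoptosis genes 21 of 34 rose and 3 fell, beside 31.4% and 31.8% of all genes. Their median was 0.31, and 31 rose without scaling. Tnfrsf10b, a death receptor gene, rose from 0.637, 0.794, 0.98 and 1.33 CPM to 2.42, 3.01, 3.14 and 5.41 CPM, 1.77 ± 0.18 (adjusted p = 8.34e-10), and was 0.92 ± 0.16 above 72Q control. Pmaip1, the BH3-only gene coding for NOXA, rose from 2.71 ± 0.913 CPM to 8.37 ± 2.89 CPM, 1.58 ± 0.19 (adjusted p = 7.42e-07). Cdkn2a, a cell cycle inhibitor gene and senescence marker, rose from 0.0579, 0.733, 0.368 and 0.444 CPM to 4.62, 6.01, 6.57 and 7.37 CPM, 3.61 ± 0.21 (adjusted p = 4.27e-15). Its neighbour on chromosome 4, Cdkn2b, rose from 2 ± 0.795 CPM to 5.42 ± 0.206 CPM, 1.40 ± 0.17 (adjusted p = 3.66e-08), while of all 17 cell cycle inhibitor and cyclin genes 7 rose and 3 fell.

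Stress lists without a common direction were those of the unfolded protein response and of the chaperones. In the first, 11 of 33 rose and 11 fell, with a median of -0.028 that became 0.18 without scaling, and without the experiment term 7 rose and 5 fell. Sesn2 and Ppp1r15a, targets of the integrated stress response, rose by 0.73 ± 0.074 and 0.61 ± 0.065, and Shmt2 and Atf5, also targets of that response, fell to -0.61 ± 0.056 and -0.51 ± 0.047 on the log2 scale. In the second, 11 of 29 rose and 6 fell. Hsp90ab1, the constitutive cytosolic HSP90, rose from 1036 ± 43.9 CPM to 1501 ± 132 CPM, 0.53 ± 0.048 (adjusted p = 6.12e-11), and Hspa12a, an atypical HSP70, fell from 133 ± 7.99 CPM to 59.5 ± 3.8 CPM, -1.16 ± 0.054 (adjusted p = 3.07e-17).

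Cholesterol synthesis genes were split against 25Q and mostly higher than in 72Q control. Of 31 genes 15 rose and 11 fell against 25Q (median 0.19), beside 31.4% and 31.8% of all genes. Against 72Q control 23 were higher and 3 lower (median 0.53), beside 20.2% and 21.5% of all genes. Lss, lanosterol synthase, went from 172, 170.2, 173 and 169.7 CPM to 394, 307, 448 and 419 CPM, 1.18 ± 0.084 (adjusted p = 7.56e-09), and Hsd17b7, a later enzyme of the pathway, from 50.3, 53.8, 53.8 and 51.9 CPM to 119, 91.9, 142 and 114 CPM, 1.14 ± 0.091 (adjusted p = 2.54e-08). All shRNA 2 libraries were above 25Q for both genes. Hmgcs1, the synthase at the entry of the pathway, was at 1954, 1721, 1833 and 1864 CPM in 25Q, 1104, 606, 1109.8 and 784 CPM in 72Q control and 1515, 989.7, 1406 and 1074 CPM with shRNA 2. It remained below 25Q, at a log2 fold change of -0.59 ± 0.11 (adjusted p = 0.000679), and was above 72Q control by 0.48 ± 0.11 (adjusted p = 0.00496). The efflux transporter genes Abca1 and Abcg1 fell by log2 fold changes of -0.60 ± 0.052 and -0.61 ± 0.064.

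Transcripts of the mitochondrial genome were lower with shRNA 2 than in either reference group. Of 13 protein-coding genes 7 had counts enough to be tested, and all 7 fell against 25Q and all 7 against 72Q control, with medians of -0.45 and -0.57. The other 6 are listed at 0 in both groups of the comparison. mt-Cytb, a subunit of complex III, was at 6332, 5611, 6096 and 5619.5 CPM in 25Q, 3695, 4611, 3455 and 4374 CPM with shRNA 2 and 6521, 6560.0, 6686 and 6249 CPM in 72Q control. The shRNA 2 libraries were below all libraries of both reference groups. Without scaling 3 of the 7 genes fell against 25Q. Of 42 nuclear-encoded respiratory chain genes 17 rose, 5 fell and 20 were not called, with a median of 0.089. Of all genes tested 31.4% rose and 31.8% fell. Without the experiment term 10 rose and 1 fell, and without scaling 37 rose and 0 fell. Sdha, of complex II, rose by 0.44 ± 0.045 (adjusted p = 1.04e-09) and Tfam, which maintains mitochondrial DNA, by 0.41 ± 0.053 (adjusted p = 8.35e-08).

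Polycomb genes, whose complexes keep developmental factors silent, showed no common direction, with 10 of 30 higher and 10 lower (median 0.096), and with upper-quartile factors 16 higher and 8 lower. Against 72Q control 1 was higher and 8 lower. Jarid2, an accessory subunit of complex 2, fell from 77.3 ± 3.76 CPM to 43.8 ± 2.3 CPM, -0.82 ± 0.053 (adjusted p = 4.35e-14). Kdm6b, a demethylase that removes the Polycomb mark, fell from 45.6 ± 8.46 CPM to 27.1 ± 3.79 CPM, -0.74 ± 0.078 (adjusted p = 9.02e-09), and was at 44.5 ± 7.7 CPM in 72Q control. Cbx6, a subunit of complex 1, was at 316, 298, 343 and 332 CPM in 25Q, 321, 315, 348 and 316 CPM in 72Q control and 199.9, 193, 221 and 224 CPM with shRNA 2, -0.62 ± 0.043 (adjusted p = 2.24e-13) against 25Q. Its shRNA 2 libraries lay below all others of the study. Phf1, another accessory subunit of complex 2, and Cbx8, of complex 1, rose by 0.72 ± 0.063 and 0.62 ± 0.081.

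Of 13 DNA methylation enzymes and readers 3 rose and 2 fell, beside 31.4% and 31.8% of all genes. The maintenance methyltransferase gene Dnmt1 fell from 152 ± 14.5 CPM to 105 ± 11 CPM, -0.53 ± 0.060 (adjusted p = 1.57e-08). Imprinted genes rose in 14 and fell in 3 of 29 cases, beside 31.4% and 31.8% of all genes. In a 25Q library 3 of the 29 were under the filter's floor, so calls of a rise among these were favoured by the filter. The 14 and 3 became 9 and 2 without the experiment term, and 13 and 1 without the exp109a library of shRNA 2. Nnat, a small membrane protein of neurons, was among the 3 that fell, from 1071 ± 51.7 CPM to 637 ± 81 CPM, -0.75 ± 0.056 (adjusted p = 3.96e-12).

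Genes of epithelial-mesenchymal transition, the process Twist1 is best known for driving in tumours, fell in 12 and rose in 4 of 23 tested cases, with a median of -0.34. Without scaling 12 fell and 9 rose. The epithelial genes Epcam and Krt18 rose, from 0.303 ± 0.154 CPM to 0.887 ± 0.137 CPM (1.26 ± 0.30) and from 0.122 ± 0.0503 CPM to 0.519 ± 0.0736 CPM (1.43 ± 0.34). These are 2 of the 4 that rose. Both were under the filter's floor of 0.565 CPM in 25Q and passed it through the 72Q libraries, so their calls were favoured by the filter. The mean of Krt18 was under the floor with shRNA 2 as well. Tnc, an extracellular matrix glycoprotein, fell from 76.6 ± 17.6 CPM to 28.5 ± 8.87 CPM, -1.45 ± 0.097 (adjusted p = 1.35e-09), and the chemokine gene Cxcl12 from 8.88 ± 0.912 CPM to 2.2 ± 0.707 CPM, -1.96 ± 0.17 (adjusted p = 3.22e-11). All of these were measured against 25Q. In the direct test against 72Q control 3 of the 23 were higher and 9 lower, or 2 and 6 without the experiment term.

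Clustered protocadherins, adhesion proteins that give neurons a surface identity, were not called in most cases, with 3 of 23 higher and 7 lower than in 25Q and a median of -0.084 that became 0.12 without scaling. Against shRNA 1 they were higher in 1 and lower in 18 cases. The other 34 listed members were not analysed here.

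Markers of other cells in the cultures were measured beside these results. Oligodendrocyte lineage markers fell in 11 and rose in none of 16 tested cases, beside 31.8% and 31.4% of all genes. Their median was -0.35, and 7 fell without the experiment term or without scaling. Their summed level was 1282 to 1565 CPM in 25Q, 906 to 1164 CPM with shRNA 2 and 1359 to 1661 CPM in 72Q control. Gpr17, a receptor of committed precursors, fell from 209 ± 29.7 CPM to 117 ± 25.1 CPM, -0.85 ± 0.072 (adjusted p = 4.4e-09), and Pdgfra, the precursor receptor, from 324 ± 15.9 CPM to 227 ± 14.6 CPM, -0.51 ± 0.047 (adjusted p = 7.96e-11). Both were near their 25Q level in 72Q control, at 208 and 333 CPM.

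Astrocyte markers fell in 7 and rose in 2 of 21 cases, with 2 falling and 0 rising without the experiment term, 0 falling and 9 rising without scaling, and their median of -0.081 became 0.13 without scaling. Their summed level was 6034 to 6680.1 CPM in 25Q and 5055 to 6263 CPM with shRNA 2, which overlap, and none was higher and 12 were lower than in 72Q control (7 without the experiment term). Interneuron markers fell in 13 and rose in 3 of 20 cases, beside 31.8% and 31.4% of all genes, with 7 falling without the experiment term. Their median was -0.37, and 2 fell by at least 2-fold. Their summed level was 1286 to 1587 CPM in 25Q and 942 to 1238 CPM with shRNA 2, without overlap. Unlike most of the list, Gad2, a GABA-synthesising enzyme, rose from 54.4 ± 10.1 CPM to 71.2 ± 7.42 CPM, 0.39 ± 0.055 (adjusted p = 2.77e-07). Progenitor and proliferation markers rose in 6 and fell in 6 of 29 cases, beside 31.4% and 31.8% of all genes, with a median of 0.035. Their summed level was 508 to 630 CPM in 25Q and 519 to 587 CPM with shRNA 2, which overlap. Against 72Q control 0 were higher and 13 lower, beside 20.2% and 21.5% of all genes. Tpx2, a spindle assembly gene among the 6 that rose, went from 13.4 ± 0.609 CPM to 29.9 ± 2.3 CPM, 1.15 ± 0.074 (adjusted p = 3.81e-14).

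Microglia markers were near the floor, with a summed level over 18 genes of 33.2 to 41.6 CPM in 25Q and 27.6 to 33.3 CPM with shRNA 2, and 12 of the 18 were not tested. Of the 6 that were tested, 2 rose and 1 fell, beside 31.4% and 31.8% of all genes. The gene that fell was Mpeg1, of the 12 lowest genes above, at -3.03. In a 25Q library 2 of the 6 were under the filter's floor, and in an shRNA 2 library 3 were. Tmem119, a defining gene of microglia, had 0 counts in 25Q and 4 with shRNA 2. Vascular and meningeal markers summed to 25.1 to 42.1 CPM in 25Q and 27.1 to 40.4 CPM with shRNA 2. Of the 10 that were tested, 4 of them under the filter's floor in a 25Q library, 4 rose and 3 fell, and the 3 calls of a fall were lost without the experiment term. The part of these cell types in the results above was not tested.

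A set of genes differed from 25Q with shRNA 2 although 72Q control had stayed near 25Q. They were chosen for that pattern, as the 6 highest and 6 lowest with an absolute log2 difference under 0.1 between 72Q control and 25Q and a mean of at least 5 CPM, so their values are a description. Elavl3 (ENSMUSG00000003410, chr9:22015005-22052023), a neuronal RNA-binding protein that shapes splicing, was at 535, 479, 593 and 644 CPM in 25Q and 542, 469.7, 596 and 556 CPM in 72Q control. With shRNA 2 it was at 206, 155, 210.4 and 230.1 CPM, a log2 fold change from 25Q of -1.49 ± 0.054. With shRNA 1 it was at 529, 528, 607 and 582 CPM. The 4 shRNA 2 libraries were below all 12 others.

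St6galnac6, a sialyltransferase of gangliosides, was at 136, 151, 135 and 136 CPM in 25Q and 68.9, 59, 63.8 and 63.8 CPM with shRNA 2, and Zfp362, a zinc finger gene, at 65.7, 62, 74.7 and 74 CPM and 30.0, 28.7, 29.8 and 36.7 CPM. For both the shRNA 2 libraries were below every other library of the study. Ascc2, a subunit of a ribosome and DNA repair complex, and Wiz, a partner of the G9a methyltransferase, were lower than 25Q by log2 fold changes of -1.32 ± 0.062 and -1.27 ± 0.057, and they were lower also with shRNA 1, at -0.23 ± 0.058 and -0.75 ± 0.056.

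On the higher side stood Baiap3, a gene of dense-core vesicle traffic, at 5.73, 3.73, 4.96 and 5.65 CPM in 25Q, 5.36, 5.66, 5.31 and 4.59 CPM in 72Q control and 13.5, 17.1, 15.6 and 14.7 CPM with shRNA 2. Cntnap1, the axonal protein of paranodal junctions, was at 20.1, 28.8, 31 and 28.5 CPM in 25Q, 17.1, 29, 28.2 and 30.3 CPM in 72Q control and 47.9, 70.2, 70.4 and 71.9 CPM with shRNA 2. With shRNA 1 both were close to 25Q, at 6.23 ± 0.655 CPM and 27.7 ± 5.52 CPM. Car12, a membrane carbonic anhydrase, and Tspan2, a tetraspanin, were higher with both hairpins, Tspan2 at 35.4, 29, 32.2 and 28.4 CPM with shRNA 1 and 33.5, 25.2, 28.2 and 29.8 CPM with shRNA 2 against 14.5, 11, 13.8 and 12.4 CPM in 25Q. C1ql2, a synaptic organiser of the C1q family, was higher with shRNA 2, at 9.79 ± 3.1 CPM, and lower with shRNA 1, at 2.1 ± 0.645 CPM, than the 4.28 ± 1.34 CPM of 25Q. The direct difference between the hairpins for C1ql2 was 2.15 ± 0.14 (adjusted p = 1.13e-13). Sh2d5, an SH2 domain adaptor, was 1.06 ± 0.065 above 25Q.

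**Figure D3:**
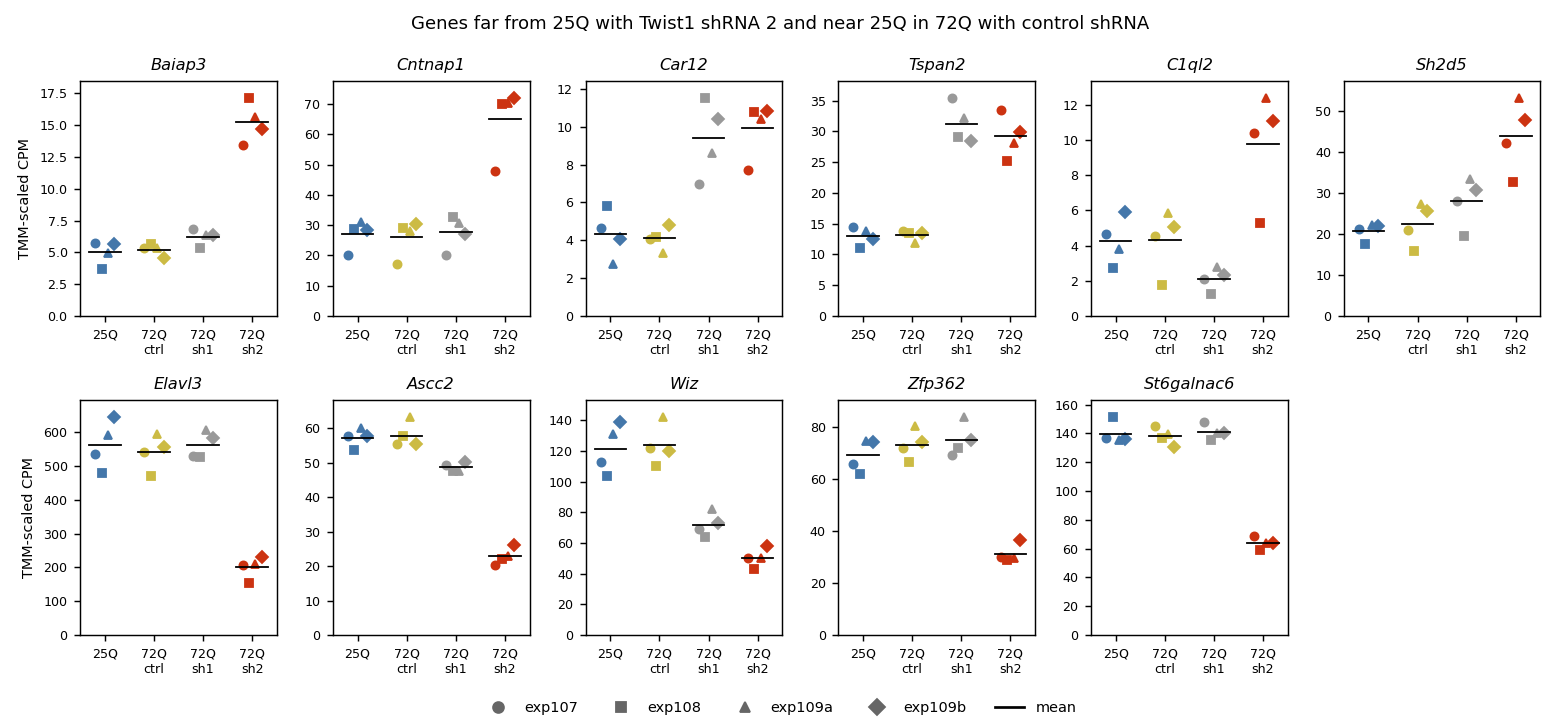
TMM-scaled CPM of 11 genes chosen for being far from 25Q with shRNA 2 and near it in 72Q control, with 1 point per library in each of the 4 groups, marker shape for the experiment and a bar at the mean of 4. Elavl3, Zfp362 and St6galnac6 have shRNA 2 points below all others, whereas Tspan2 and Car12 are raised with both hairpins.

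Over all genes, the 4 shRNA 2 libraries lay above the 12 other libraries of the study in 537 genes (3.56%) and below them in 635 (4.2%). Of 25 tested pan-neuronal markers 5 lay below all other libraries, of 30 Polycomb genes 5 and of 34 vesicle release genes 4. Above all others were 6 of 11 tested developmental forkhead genes, 5 of 16 paired-like and limb homeobox genes and 4 of 11 HOX genes. Most tested members of these developmental lists were under the filter's floor in a 25Q library. Also above all others were 5 of 42 serotonin and neuropeptide receptor genes and 4 of 31 cholesterol genes, which are smaller shares. Every remaining list had fewer such genes than these. For Twist1 the test found no difference between the hairpins, as given above.

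A second set was chosen for the reverse pattern, as the genes with the largest called difference between 72Q control and 25Q, where 57.1% of genes were called, whose shRNA 2 level was within 0.15 log2 units of 25Q. These too are a description. Slc25a38, a mitochondrial glycine carrier needed for heme synthesis, was at 23.3, 25.9, 23.7 and 24 CPM in 25Q, 39.3, 57, 36.3 and 55.1 CPM in 72Q control and 23.4, 25.7, 25.7 and 26.7 CPM with shRNA 2. Its shRNA 2 and 25Q libraries overlapped, and the log2 fold change between them was 0.069 ± 0.085. The other 5 genes that were higher in 72Q control were Disp1, which releases hedgehog ligands, D130043K22Rik, the phosphatase scaffold gene Ppp2r1b, the actin regulator Phactr4 and Foxj1, with shRNA 2 values between -0.10 and 0.13 log2 units from 25Q.

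Genes that were lower in 72Q control and near 25Q with shRNA 2 included receptors and channels. Grin2a, the GluN2A subunit of NMDA receptors, was at 25.6, 18, 29.2 and 27 CPM in 25Q, 13.2, 9.1, 12.5 and 11.8 CPM in 72Q control and 27.8, 21.2, 30.3 and 28.2 CPM with shRNA 2. With shRNA 1 it was at 30.2, 19.7, 39 and 28.8 CPM. The 72Q control libraries were below every other library. Rgs14, a GTPase activator of hippocampal neurons, was at 9.84, 11.7, 8.64 and 9.64 CPM in 25Q, 3.47, 3.56, 4.29 and 3.15 CPM in 72Q control and 9.93, 8.85, 10.4 and 7.47 CPM with shRNA 2. Htr2c, a serotonin receptor gene, was at 8.51, 6.41, 9.38 and 10.4 CPM, 5.12, 2.8, 5.36 and 4.85 CPM and 8.43, 8.25, 9.18 and 8.21 CPM in the same order of groups. Kcns2, a modulatory potassium channel subunit, Col19a1, a collagen gene, and Zmat4, a zinc finger gene, had shRNA 2 values of -0.013 ± 0.086, 0.10 ± 0.11 and -0.066 ± 0.099 from 25Q. Without scaling beyond library totals Grin2a, Disp1, Slc25a38, Ppp2r1b, Phactr4, Col19a1 and Kcns2 were called higher with shRNA 2 than in 25Q, by 0.19 to 0.34 log2 units, so closeness to 25Q depends on the scaling.

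**Figure D4:**
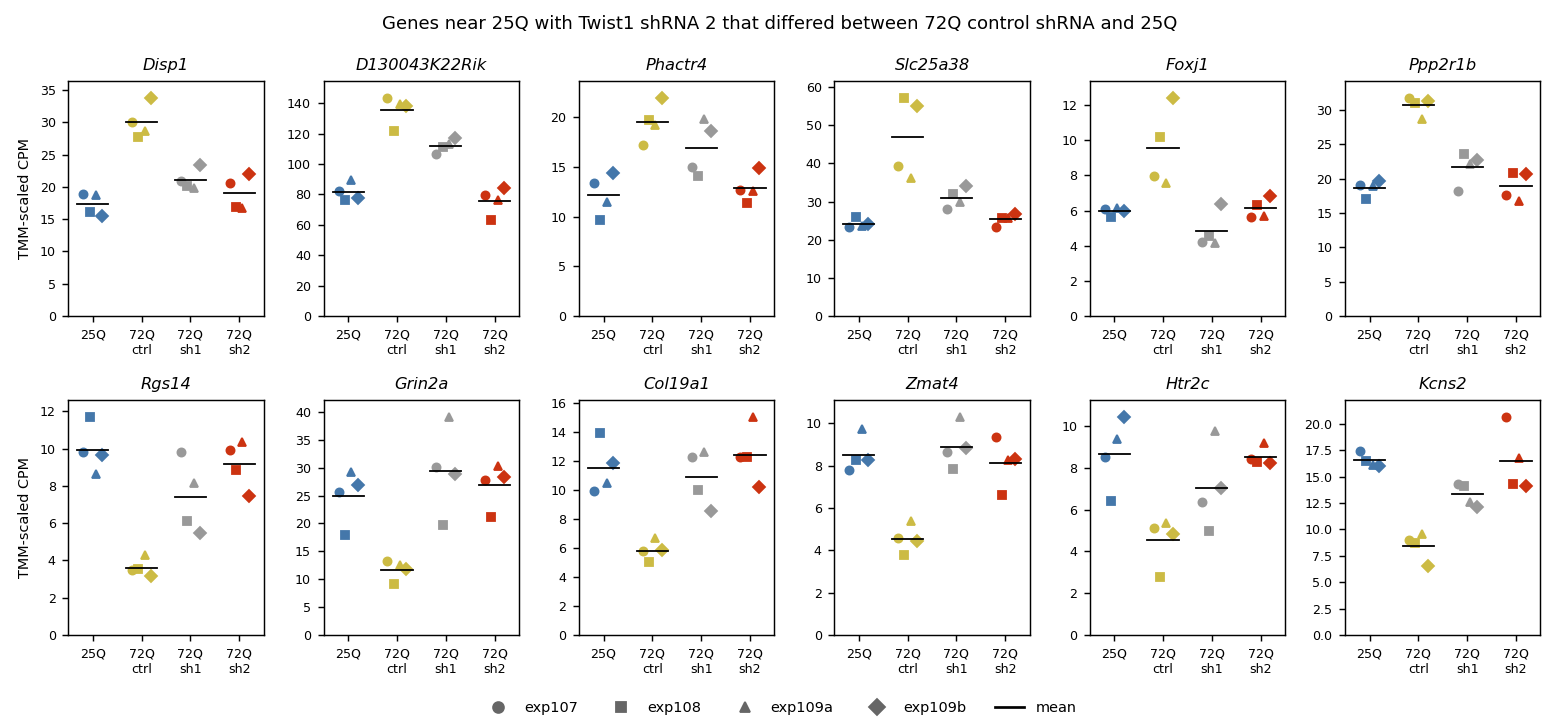
TMM-scaled CPM of the 12 genes chosen for lying near 25Q with shRNA 2 while 72Q control differed from 25Q, with 1 point per library in each of the 4 groups and a bar at the mean of 4. In the upper 6 panels 72Q control is the highest group and in the lower 6 the lowest, while the 25Q and shRNA 2 points overlap.

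Long genes were lower with shRNA 2 more often than short ones. Of 2232 genes spanning under 5 kb from start to end, 29.4% rose and 23.5% fell, and their median log2 fold change was 0.056. Of 904 genes spanning over 200 kb, 19.1% rose and 57.9% fell, with a median of -0.28. The share that fell increased in each of the 6 length classes, as the plot of calls by gene length shows. In the direct comparison with 72Q control the median of the longest class was 0.021, and that of 72Q control against 25Q, which shares the 25Q libraries, was -0.25. Grin2b, named above, falls in the longest class.

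**Figure D5:**
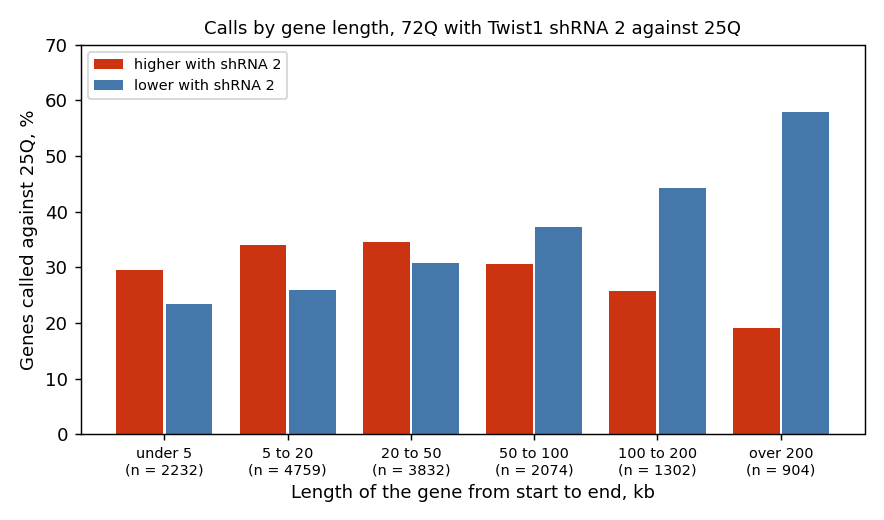
Share of tested genes that were higher (red) or lower (blue) with shRNA 2 than in 25Q at an adjusted p under 0.05, by the length of the gene from start to end in kb, with the number of genes under each class. The blue bars grow from 23.5% under 5 kb to 57.9% over 200 kb.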

How the data were processed

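Mouse cortical neuron RNA was sequenced in 16 libraries, 4 groups of 4, of which 8 form the comparison. The deposited tables hold, for 41388 genes, the authors' gene counts, CPM and RPKM. The CPM and RPKM follow from the counts and totals to within rounding, so the tests used the counts and the CPM given in the text were recomputed with scaling factors. Reads were processed with STAR 2.0.4b and Subread featureCounts 1.45 against the mouse assembly GRCm38, as the submitters' processing notes list. No source used here states strandedness, how reads mapping to several places were handled, or which annotation was counted, so genes that overlap or have close copies may share reads. Symbols came from a supplied table of gene names, which covered 97.26% of identifiers.

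Counts were filtered with filterByExpr (15103 genes kept, floor 0.565 CPM), scaled by TMM and fitted in edgeR 4.0.16 (R 4.3.3) with the quasi-likelihood test over all 16 libraries, group plus experiment as terms, 9 residual degrees of freedom, a prior count of 2 and Benjamini-Hochberg adjustment at 0.05. The common biological coefficient of variation was 5.24%. All 16 libraries enter each fit, and the comparisons share 25Q or shRNA 2 libraries. The experiment named in each library's label was taken as the pairing. The 25Q and shRNA 2 libraries of the same experiment moved together around their group means, at correlations of 0.54, 0.59, 0.33 and 0.36. Between different experiments the mean was -0.14 and the highest 0.33. Centring on the group means forces the values between different experiments down when those within experiments are positive. The mean of -0.14 is therefore not a separate check on the pairing. The number in the titles matches the experiment in all 72Q groups but in 1 of the 4 25Q libraries, and was not used to pair. Nothing beyond the experiment labels says whether libraries came from separate cultures, and p-values therefore reflect only how far these libraries spread, which may be technical. No libraries were near duplicates, with chi-square per degree of freedom of 2.71 to 18.43 between replicates. The exp109a and exp109b libraries were the closest pair in both groups, at 2.71 in 25Q and 5.95 with shRNA 2. The next closest pairs were at 6.63 and 9.05. These labels share a number, and they do not say whether exp109a and exp109b were separate experiments, although they are counted as such here. On simulated counts for this comparison over 15103 genes, 79 of 100 genes changed by 0.5 and 85 of 100 changed by 1 log2 unit were recovered, with 10 false calls. The simulation gave every gene the common spread, held no experiment effect and left all other genes unchanged. The data differ in each of these, so the simulated rates are not error rates of the calls reported here.

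Genes are named by rule. They are Twist1 and Htt, the 12 highest and 12 lowest fold changes (same sign in all 4 experiments, mean at least 1 CPM), the 8 and 8 at a mean of at least 50 CPM, the 6 and 6 near 25Q in 72Q control, the 6 and 6 near 25Q with shRNA 2, and for each of 42 gene lists up to 2 highest, up to 2 lowest and the most abundant member. A few genes that the rule covers are not reported here. Other genes named as members of lists were chosen after their values were seen. The members and lists were chosen with earlier results of these data known. Alternatives were other scaling, DESeq2 1.42.0, no filter, no experiment term, the title number as the block, only the 8 libraries, and each library left out. Count ratios are of summed counts over TMM-scaled totals, with a 95% exact interval that covers counting error only.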

Additional observations from a re-analysis of the deposited data

Results flagged for a closer look

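Among 118 groups of 4 libraries examined for 59 named genes, 10 had a library apart from the other 3 by Dixon's criterion at the 95% level, where chance gives about 1 in 20 groups. With shRNA 2, the exp107 library was the lowest for Car12 (7.73 CPM) and Cntnap1 (47.9 CPM) and the highest for Grm2 (25.2 CPM), and the exp109b library was the highest for Zfp362 (36.7 CPM). In 25Q, the exp108 library was the lowest for Inhba (5.5 CPM) and Zcchc12 (26.6 CPM) and the highest for St6galnac6 (151 CPM). In 25Q the remaining cases were genes near 0 with counts in 1 library, Hoxc13 in exp107 (0.174 CPM), Hoxd8 in exp109b (0.0635 CPM) and Tbx3 in exp109b (0.0635 CPM). None of these genes lost its call against 25Q when any library was left out.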

How the results depend on the processing

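Between shRNA 2 and 25Q, 9556 genes were called, and 9867 with upper-quartile factors, 8946 with DESeq2, 9643 without the filter, 7630 without the replicate block, 8271 with the title number as the block and 9046 in the 8 libraries alone. Without scaling beyond library totals 7612 genes rose and 2922 fell, 406 of them by at least 2-fold. Without the replicate block 3621 genes differed between shRNA 2 and 72Q control, beside 6307 with it. Leaving out each library in turn gave 8943 to 9664 calls against 25Q, 4419 to 4794 higher and 4457 to 4870 lower, 759 to 842 higher and 617 to 744 lower by at least 2-fold. It gave 5423 to 6478 calls against 72Q control, 7209 to 8213 against shRNA 1, and 7868 to 8718 for 72Q control and 7997 to 8715 for shRNA 1 against 25Q. Without scaling the log2 fold changes of Kcns2 (0.195), Gabbr1 (0.203), Scn2a (0.135), Cox5b (0.029) and Atp5a1 (0.171) turned from negative to positive. The split of higher and lower calls moved by over 10 percentage points without scaling in 25 of 42 lists, toward higher in each: astrocyte markers (2 and 7 to 9 and 0), clustered protocadherins (3 and 7 to 9 and 2), neural progenitor and proliferation markers (6 and 6 to 13 and 3), integrated stress and unfolded protein response (11 and 11 to 19 and 5), glutamate receptor genes (4 and 18 to 9 and 13), nuclear-encoded respiratory chain genes (17 and 5 to 37 and 0), cell cycle inhibitors and D-type cyclins (7 and 3 to 12 and 1), pan-neuronal markers (2 and 19 to 6 and 13), Polycomb complex genes (10 and 10 to 18 and 7), DNA methylation enzymes and readers (3 and 2 to 9 and 2), RGS genes (4 and 8 to 6 and 5), cholesterol synthesis and sterol sensing (15 and 11 to 17 and 5), activin, IGF and insulin pathway genes (7 and 12 to 10 and 8), Twist1 and its dimer partners (4 and 3 to 6 and 2), epithelial-mesenchymal transition genes (4 and 12 to 9 and 12), synaptic vesicle release genes (7 and 22 to 10 and 14), neurotrophins and their receptors (3 and 7 to 5 and 6), ventral forebrain DLX, NKX and GSX factors (6 and 4 to 6 and 2), voltage-gated sodium and calcium channels (5 and 14 to 9 and 13), cytosolic chaperones (11 and 6 to 19 and 5), GABA and glycine receptor genes (7 and 8 to 11 and 7), serotonin and neuropeptide receptors (14 and 19 to 19 and 15), activity-regulated genes (13 and 20 to 20 and 18), imprinted genes (14 and 3 to 18 and 1), striatal-type neuron genes (11 and 21 to 16 and 20). Of 214 named genes, calls against 25Q were lost without the block for 14 and with DESeq2 for 1 (Csf1r). Without scaling 190 kept their call or lack of one, 11 lost it, 8 gained it and 5 reversed. Lost when a library was left out were Csf1r, Atp1b2, Ntf5 and Dio3. The causes were not tested. Genes with under about 10 counts in 25Q are limited by depth, as their intervals show.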
